A study of Mus musculus with 6 samples.

Results

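The EGF-family ligands and the ErbB receptors that bind them were described in immortalised mouse astrocytes that carried either an empty plasmid or a plasmid for the Notch ligand JAG1. The 9 genes were taken by symbol, as 6 ligands (Areg, Ereg, Hbegf, Btc, Tgfa and Nrg1) and 3 receptors (Egfr, Erbb2 and Erbb3), out of 23282 gene rows. They had been picked with the contrast between these same libraries already known, so their values are a description and carry no p-value. All 6 libraries came from a murine astrocyte line labelled Ink4a -/-, described in the study as Ink4a/Arf-/-, and grown with serum. The 3 control libraries carried pcDNA3.1-puro and were labelled WT for genotype although they share the Ink4a/Arf loss, and the 3 JAG1 libraries carried pcDNA3.1-JAG1-puro. No source used here says that libraries of the same plasmid were transfected apart, so the p-values given for other genes measure only the spread between these samples, which may be technical. The astrocytes are a cultured and immortalised line without the other cells of a tissue, and JAG1 was expressed from a plasmid rather than from its own locus.

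Ligands of this family are made as membrane-anchored precursors whose extracellular part holds an EGF-like domain, a small fold held together by disulfide bonds between cysteines. Metalloproteinases such as ADAM17 cut the precursor and release the soluble ligand, which binds an ErbB receptor on the same or a neighbouring cell. Amphiregulin (Areg) and TGF-alpha (Tgfa) bind EGFR, whereas epiregulin (Ereg), HB-EGF (Hbegf) and betacellulin (Btc) bind both EGFR and ERBB4, and neuregulin 1 (Nrg1) binds ERBB3 and ERBB4. ERBB2 has no known ligand and acts as a partner of the other receptors. Occupied receptors pair, phosphorylate each other and signal through RAS-MAPK and PI3K-AKT, and the EGFR gene is often amplified in glioma, a tumour of glial cells.

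The part of a ligand that touches the receptor is the EGF-like domain, and its coding sequence is shown for 5 of the 6 ligands because it is what the family shares. Each stretch runs from the first to the last of 6 cysteine codons, which are in capitals, and was read 5′ to 3′ on the coding strand of GRCm38 through GENCODE M21 transcripts. The stretch lay in exons 3 and 4 of 6 in Areg (chr5:91143614-91144364, plus strand), Btc (chr5:91362421-91366197, minus strand) and Tgfa (chr6:86263200-86269960, plus strand). It lay in exons 3 and 4 of 5 in Ereg (chr5:91088496-91089111, plus strand) and in exons 2 and 3 of 9 in Nrg1 (chr8:31837698-31849398, minus strand).
Areg: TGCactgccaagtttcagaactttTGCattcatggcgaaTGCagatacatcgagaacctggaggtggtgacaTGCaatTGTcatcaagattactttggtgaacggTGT
Ereg: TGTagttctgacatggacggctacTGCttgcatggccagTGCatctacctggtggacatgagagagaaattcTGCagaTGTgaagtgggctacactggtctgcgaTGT
Btc: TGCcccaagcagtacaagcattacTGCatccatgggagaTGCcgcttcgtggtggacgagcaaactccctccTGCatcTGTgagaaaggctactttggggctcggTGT
Tgfa: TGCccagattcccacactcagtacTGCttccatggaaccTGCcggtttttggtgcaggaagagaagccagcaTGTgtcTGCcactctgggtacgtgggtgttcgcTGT
Nrg1: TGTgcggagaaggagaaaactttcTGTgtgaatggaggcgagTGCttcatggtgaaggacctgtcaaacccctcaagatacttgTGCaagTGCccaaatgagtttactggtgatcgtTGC
The 4 ligands shown that bind EGFR (Areg, Ereg, Btc and Tgfa, with Hbegf not shown) had stretches of the same length, 36 codons with the cysteines at the same places, whereas the neuregulin stretch was 40 codons long.

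The upstream bases of Areg and Egfr are shown because these genes had the widest differences in opposite directions among the members, and those of Btc because it lies beside Areg with a log2 fold change near 0. Each is the 250 bases before the RefSeq gene start in GRCm38.p6, read on the gene's strand. The Areg stretch is chr5:91139349-91139598 (plus strand), the Egfr stretch chr11:16751953-16752202 (plus strand) and the Btc stretch chr5:91402995-91403244 (minus strand). Capitals mark matches to TGGGAA, the core of the element bound by the Notch partner RBPJ, and to TGACGT, the core of the cyclic AMP response element.
Areg: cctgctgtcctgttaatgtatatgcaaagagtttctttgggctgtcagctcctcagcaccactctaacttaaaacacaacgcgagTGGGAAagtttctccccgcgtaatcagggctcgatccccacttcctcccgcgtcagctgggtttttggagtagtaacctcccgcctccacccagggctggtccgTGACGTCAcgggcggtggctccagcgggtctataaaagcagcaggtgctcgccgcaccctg
Egfr: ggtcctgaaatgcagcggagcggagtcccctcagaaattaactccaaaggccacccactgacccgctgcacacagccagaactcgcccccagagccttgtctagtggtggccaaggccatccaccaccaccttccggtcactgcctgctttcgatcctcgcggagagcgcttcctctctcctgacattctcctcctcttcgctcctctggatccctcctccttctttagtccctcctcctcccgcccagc
Btc: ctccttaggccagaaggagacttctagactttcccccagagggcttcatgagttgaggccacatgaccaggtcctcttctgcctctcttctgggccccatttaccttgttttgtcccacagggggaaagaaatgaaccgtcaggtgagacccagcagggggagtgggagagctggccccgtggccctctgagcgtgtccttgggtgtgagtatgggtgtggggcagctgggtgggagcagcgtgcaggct
In windows of 300 bases (250 before and 50 after the start), searched on both strands, the Areg promoter held 1 match to TGGGAA, a motif found in 25.6% of 32851 RefSeq promoters. It held TGACGT on both strands at overlapping positions, and 7.51% of all promoters held this motif. The AP-1 motif TGANTCA, found in 7.81% of all promoters, was in none of the 5 member promoters searched (Areg, Btc, Tgfa, Egfr and Erbb2). Ereg, Hbegf, Nrg1 and Erbb3 had no window in the promoter set used and were not searched. GTCTG, the core of the element bound by SMAD3, was in the Tgfa and Egfr windows and in 49.6% of all promoters. These matches describe letters and not binding.

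The libraries held between 14341634 and 20489062 reads, counted at the 3′ ends of transcripts. Values are given as reads and as counts per 1000000 reads (CPM), with library depth scaled by the TMM factors of edgeR, and 3 reads, the lower limit used here, stood for 0.148 to 0.206 CPM. Because the method reads the 3′ end of each transcript, a long transcript does not gather more reads, and levels of different genes were compared as CPM without division by length. The row of the mouse gene Jag1 was read first. Whether transcripts from the plasmid are counted in this row is not stated, so its values need not give the degree of overexpression. Jag1 had 182, 201 and 214 reads in the control libraries and 304, 197 and 227 in the JAG1 libraries, or 10.3 ± 1.18 against 14.2 ± 0.862 CPM (SD, n = 3). Its log2 fold change was 0.46 (SE 0.11, edgeR adjusted p = 0.00446), and the groups did not overlap in CPM. For the marker calls that follow, 27.4% of all tested genes were called higher and 27.7% lower. Of 12 astrocyte markers, Gfap and Aqp4 had no read in any library, 7 were tested and 6 of these fell. Their summed level, most of it vimentin, was 3267 to 3751 CPM in control and 3342 to 3408 CPM in JAG1. Summed markers of fibroblasts and mural cells were at 628 to 637 CPM in control and 254 to 299 CPM in JAG1. Of their 5 tested genes 1 was higher and 4 lower, and 1 of the 6 listed was at 0 throughout. Col1a2 was the higher one (3.35 against 50.7 CPM), and Acta2 was among the lower ones (310 against 39.5 CPM). Summed epithelial markers were at 13.3 to 14.2 against 0.449 to 1.31 CPM (1 of 6 tested, lower), neuronal markers at 27.3 to 28.4 against 50.8 to 52.9 CPM (2 of 6 tested, 1 in each direction) and microglial markers at 5.75 to 6.12 against 3.58 to 4.61 CPM (3 of 8 tested, 1 in each direction). Most of the epithelial sum in control was Krt14 (12.7 CPM, 0.152 in JAG1). Nearly all of the neuronal sum was Map2 (25.1 against 51.3 CPM), while the neuronal marker Stmn2 fell from 2.74 to 0.320 CPM. The other neuronal markers had at most 1 read in any library, so these sums do not measure cells of a type. Oligodendrocyte and endothelial markers summed to at most 1.19 and 0.322 CPM in any library. Their part in the results below was not tested, and in bulk RNA fewer cells of a type and less RNA per cell cannot be told apart.

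Among the ligands, Areg, Ereg and Hbegf were at higher levels in every JAG1 library than in any control library, and Btc, Tgfa and Nrg1 had overlapping groups. Areg encodes amphiregulin, an EGFR ligand of epithelial repair (chr5:91139599-91148432). Its reads numbered 3, 1 and 5 in the control libraries and 94, 78 and 86 in the JAG1 libraries. The control libraries were thus at about the lower limit of counting, and all 3 JAG1 libraries were far above it. In CPM the values were 0.148, 0.0537 and 0.262 against 4.69, 5.37 and 5.22, with means of 0.154 ± 0.104 and 5.09 ± 0.360 (SD, n = 3). The log2 fold change was 4.97 (SE 0.32). The SE was 0.45 with limma-voom and 0.55 with DESeq2, so the edgeR value may understate the error at so few control reads. The summed reads, 9 in control and 258 in JAG1, gave a depth-adjusted ratio of 32.6 with a 95% exact Poisson interval of 16.9 to 72.0 that covers counting error only. Control replicate 3 held 5 of the 9 control reads, and without it the log2 fold change was 5.53.

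Ereg encodes epiregulin and lies upstream of Areg (chr5:91074617-91093649). It had 298, 247 and 255 reads in the control libraries against 485, 380 and 440 in the JAG1 libraries. All JAG1 libraries were above all control libraries although JAG1 replicate 2 was the shallowest of the 6. Mean levels were 13.8 ± 0.818 and 25.7 ± 1.34 CPM (SD, n = 3), 1.86-fold apart, and the log2 fold change was 0.90 (SE 0.09). Ereg overlaps an antisense gene, Gm19610, by 152 bases at its start, and whether reads were counted by strand is not stated.

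Hbegf, on chromosome 18 (chr18:36504927-36515805), encodes the heparin-binding ligand and was the ligand with the highest level in both groups. It had 1088, 1027 and 982 reads in control and 2228, 1626 and 1892 in JAG1, equal to 53.7, 55.1 and 51.4 against 111, 112 and 115 CPM. The libraries of each group lay close together, and the gap between groups was many times the spread within them. Its means were 53.4 ± 1.90 and 113 ± 2.04 CPM (SD, n = 3), 2.11-fold apart, and the log2 fold change was 1.08 (SE 0.06). In CPM the added Hbegf signal was therefore larger than that of Areg, whose fold change was larger.

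The other 3 ligands had groups that overlapped. Btc encodes betacellulin (chr5:91357261-91402994) and was at 9.93, 11.3 and 11.3 CPM in control against 12.7, 11.4 and 9.35 CPM in JAG1. Its highest and its lowest value both came from JAG1 libraries, and the log2 fold change was 0.04 (SE 0.13). Tgfa encodes TGF-alpha (chr6:86195038-86275744) and had 6, 10 and 10 reads in control against 17, 3 and 12 in JAG1, a log2 fold change of 0.46 (SE 0.50) at a depth that leaves the value imprecise. Nrg1, the neuregulin gene (chr8:31807452-32891609), was at 3.80, 4.78 and 6.59 CPM in control and at 5.33, 3.92 and 4.80 CPM in JAG1, a log2 fold change of -0.10 (SE 0.21). The sign for Btc and for Nrg1 depended on which libraries were used. Nrg1 has 12 annotated coding transcripts with 10 different 3′ ends, so its row sums several neuregulin forms that a gene count does not separate.

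**Figure D1:**
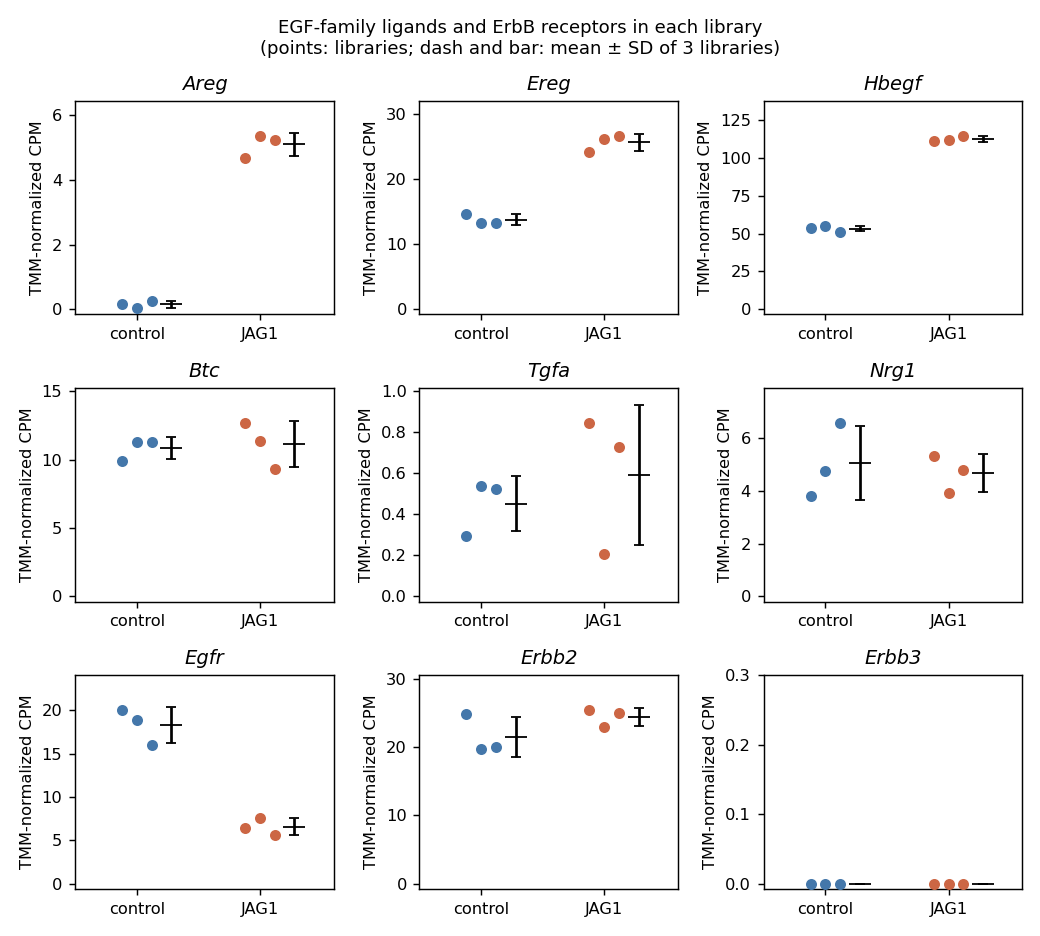
Level of each of the 9 genes in each library, in TMM-scaled CPM on linear axes from 0 that differ between genes, with 3 control and 3 JAG1 libraries as points and the mean ± SD of each group beside them. Areg, Ereg and Hbegf lie higher and Egfr lower in all 3 JAG1 libraries, the points of Btc, Tgfa, Nrg1 and Erbb2 overlap, and Erbb3 has no reads.

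Of the receptors, Egfr was lower in every JAG1 library, Erbb2 overlapped between groups, and Erbb3 had no read in any of the 6 libraries. Egfr encodes the receptor for most of these ligands (chr11:16752203-16913907). It had 406, 351 and 306 reads in control and 130, 110 and 93 in JAG1, or 20.05, 18.8 and 16.01 against 6.48, 7.57 and 5.65 CPM. The highest JAG1 value was below the lowest control value. The means were 18.3 ± 2.07 and 6.57 ± 0.963 CPM (SD, n = 3), 2.80-fold lower in JAG1, and the log2 fold change was -1.48 (SE 0.13). The gene has 3 annotated coding transcripts with 3 different 3′ ends, and the antisense gene Egfros lies within it.

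Erbb2 encodes the receptor without a known ligand (chr11:98412484-98437716). Its values were 24.9, 19.7 and 19.98 CPM in control and 25.4, 22.9 and 24.96 CPM in JAG1. Control replicate 1 lay among the JAG1 libraries, and the log2 fold change was 0.18 (SE 0.10). The 3′ end of Erbb2 overlaps that of the opposite-strand gene Mien1 by 9 bases, so reads at this end may belong to either. Erbb3, the neuregulin receptor (chr10:128567523-128589635), was listed at 0 reads throughout, which allows a level of up to 0.148 to 0.206 CPM depending on the library.

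In control the order of the receptors was therefore Erbb2 at 21.5 ± 2.92 CPM and Egfr at 18.3 ± 2.07 CPM, with ranges that overlapped, and Erbb3 below the limit of counting. In JAG1 Erbb2 was at 24.4 ± 1.34 CPM and Egfr at 6.57 ± 0.963 CPM (SD, n = 3), with no overlap. There were 1.24, 1.05 and 1.25 Erbb2 reads per Egfr read in the control libraries and 3.92, 3.03 and 4.42 in the JAG1 libraries. This ratio needs no depth scaling, and it was 1.18 ± 0.115 in control and 3.79 ± 0.706 in JAG1 (SD, n = 3). Among ligands the order in control was Hbegf, Ereg, Btc, Nrg1, Tgfa and Areg, with Ereg above Btc and Btc above Nrg1 in every library. In JAG1 Areg stood near Nrg1, at 5.09 ± 0.360 against 4.68 ± 0.712 CPM, with values that overlapped, and well above Tgfa at 0.594 ± 0.341 CPM.

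Of the 9 genes, 8 passed the filter on low counts and 3 of these were higher and 1 lower in JAG1 by the threshold used for all genes (edgeR adjusted p under 0.05). Among all 11712 genes tested, 27.4% were called higher and 27.7% lower, 55.1% in all. The groups did not overlap for 4 of the 8, with JAG1 above in 3 and below in 1, whereas over all genes JAG1 lay above in 31.1% and below in 30.9%, 62.0% in all. Since the genes were picked from this contrast, nothing is read from these counts. The median log2 fold change was 0.32 over the 8 and 0.00 over all tested genes. The medians over all tested genes of the chromosomes on which the members lie were between -0.01 and 0.03, whereas those of chromosomes 15 and 19, which hold no member, were -0.54 and 0.60. What lies behind these chromosome-wide shifts was not tested.

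**Figure D2:**
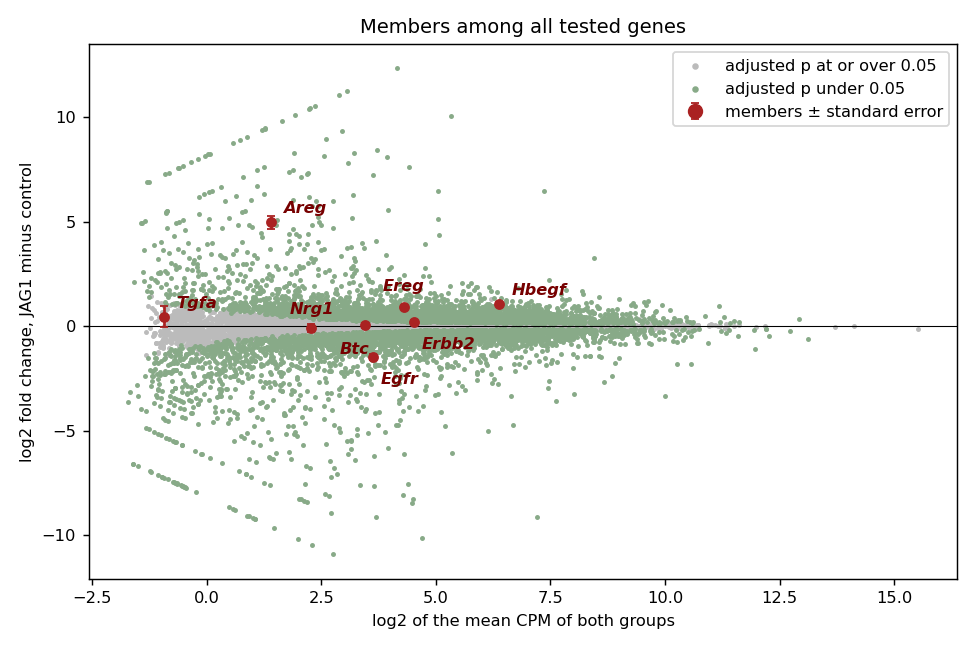
Log2 fold change (JAG1 minus control) against log2 of the mean CPM for the 11712 genes tested, in green at an adjusted p under 0.05 and grey otherwise, with the 8 members that passed the filter in red with their standard errors. Areg lies at 4.97 and Egfr at -1.48, while Btc, Nrg1 and Erbb2 lie near the line at no change.

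Summed over the 6 ligands, the level was 82.6, 85.1 and 83.4 CPM in the control libraries and 159, 159 and 162 CPM in the JAG1 libraries. The sum was nearly the same within each group and was 1.91 times as high in JAG1. Hbegf gave most of the summed signal in both groups, with 63.8% ± 1.91 in control and 70.5% ± 0.560 in JAG1 (SD, n = 3). The share of Areg was 0.185% ± 0.125 in control and 3.19% ± 0.217 in JAG1. Ereg, whose level was higher in JAG1, had 16.5% ± 1.19 of the sum in control and 16.1% ± 0.732 in JAG1. The shares of Btc (12.96% ± 0.827 and 6.98% ± 1.12) and of Nrg1 (6.04% ± 1.69 and 2.93% ± 0.446) were lower in JAG1, although the levels of both overlapped between groups. Tgfa stayed below 1 CPM in every library.

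The reads on the 5 ligands that bind EGFR were then set against the reads on Egfr itself within each library. There were 3.93, 4.26 and 4.80 ligand reads per Egfr read in the control libraries and 23.7, 20.5 and 27.8 in the JAG1 libraries. The means were 4.33 ± 0.437 and 23.98 ± 3.67 (SD, n = 3), a ratio of 5.54, with the ligand side higher and the receptor side lower. These are transcript reads and say nothing of the amount of protein, of shedding or of receptor at the cell surface.

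**Figure D3:**
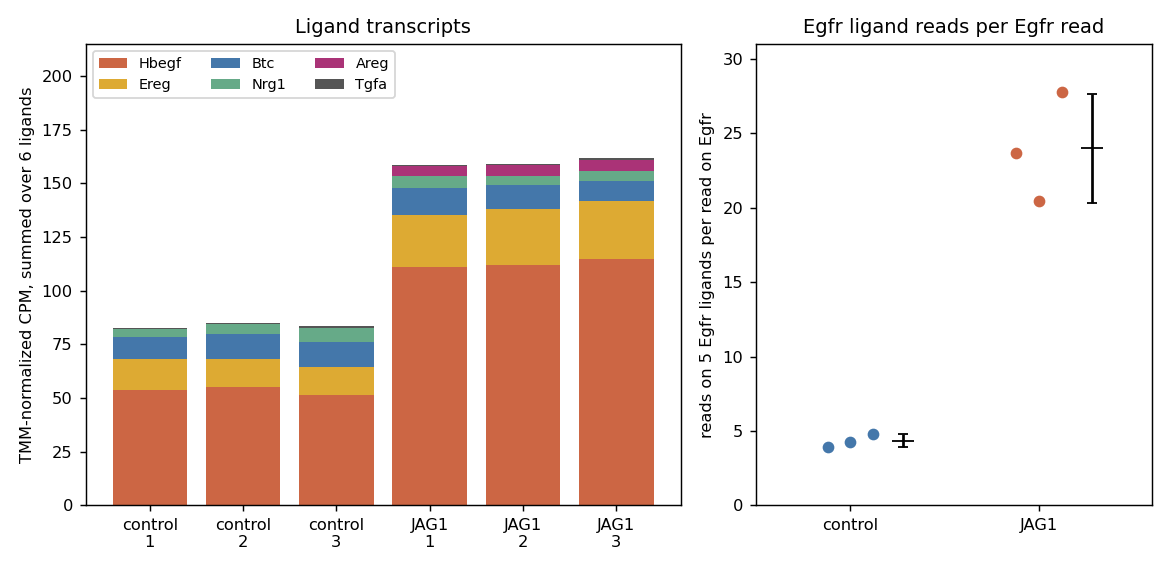
Left, summed level of the 6 ligands in each library in CPM, split by ligand; right, reads on the 5 EGFR ligands per read on Egfr, with each library as a point and the mean ± SD of 3 libraries beside it. The sum lies at 82.6 to 85.1 CPM in control and at 159 to 162 CPM in JAG1, and the ratio at 3.93 to 4.80 against 20.5 to 27.8.

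Ereg, Areg and Btc lie in a row on chromosome 5 with a further ligand gene, Epgn, and chemokine genes on one side. Levels along this stretch were read after those of the members were known, for those of the 5 protein-coding genes on each side that had a row in the tables. The chemokine gene Cxcl3 had no read in the control libraries and 57, 46 and 64 reads in the JAG1 libraries, at least 20.5-fold higher when control was set to 3 reads per library. Cxcl1, another chemokine gene between Cxcl3 and Ereg, fell from 50.7 ± 5.96 to 39.8 ± 2.81 CPM (log2 fold change -0.35, SE 0.09, edgeR adjusted p = 0.00792). Genes of the same stretch thus differed in direction. Cxcl2, Mthfd2l, Rchy1 and Cdkl2 did not pass the test, with log2 fold changes of -0.46, 0.48, 0.16 and 0.06 and edgeR adjusted p of 0.488, 0.0637, 0.154 and 0.875. Mthfd2l, which lies nearest to the ligand genes on the Ereg side among the genes tested, had no overlap between groups.

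**Figure D4:**
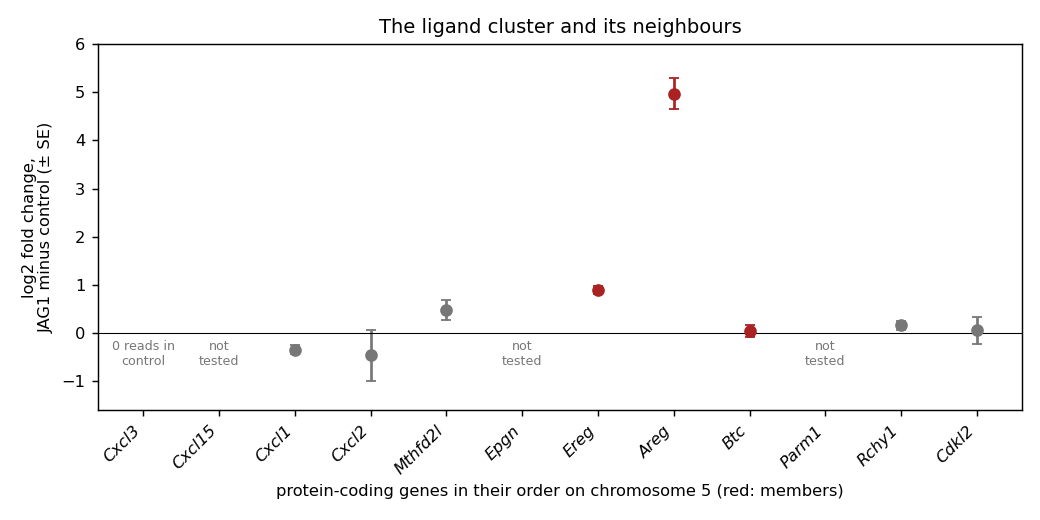
Log2 fold change (JAG1 minus control, ± SE) of the protein-coding genes around the ligand genes, in their order on chromosome 5 and not to scale. Areg at 4.97 and Ereg at 0.90 stand above Btc at 0.04 and the neighbours plotted. Cxcl3, at 0 reads in control and at least 20.5-fold higher in JAG1, has no point.

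The remaining EGF-family and ErbB genes were at or near the limit of counting, other than Nrg2. Nrg2, a neuregulin gene on chromosome 18, had 27, 41 and 53 reads in control and 78, 70 and 58 in JAG1, and rose from 2.10 ± 0.725 to 4.08 ± 0.667 CPM (log2 fold change 0.95, SE 0.25, edgeR adjusted p = 0.00743). Egf had 1 to 7 reads, Epgn 0 to 4 and Nrg4 1 to 4 reads in any library. Nrg3 and the neuregulin receptor Erbb4 had none. With Erbb3 and Erbb4 both at 0, reads on neuregulin genes were present in libraries in which no read on a neuregulin-binding receptor was found at this depth.

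Genes for the release of ligands from the membrane were next, and the sheddase Adam17 did not pass the test. Of 13 genes on this list 11 were tested, 3 rose (27.3%, beside 27.4% of all genes), 1 fell (9.09%, beside 27.7%) and 7 did not pass, and the median log2 fold change was 0.12. The share that rose was that of all genes. Without control replicate 1, 5 rose, and without JAG1 replicate 1, 2 fell. Adam17, which cuts Areg, Ereg, Hbegf and Tgfa precursors, was at 190 ± 10.3 and 207 ± 19.6 CPM (log2 fold change 0.12, SE 0.07, edgeR adjusted p = 0.164). Its level was above that of every ligand in both groups. Adam10, which cuts the Btc precursor and also Notch receptors and their ligands, rose from 35.2 ± 2.68 to 44.8 ± 2.85 CPM (log2 fold change 0.35, SE 0.08, edgeR adjusted p = 0.00353). Adam9 had 45, 208 and 394 reads in control and 554, 710 and 673 in JAG1 (log2 fold change 1.79, SE 0.47, edgeR adjusted p = 0.00761). Its control libraries spread widely, and with DESeq2 the adjusted p was 0.0588. The log2 fold change was 1.28 without control replicate 1 and 2.56 without control replicate 3. Bace1, a protease that cuts Nrg1, fell from 50.4 ± 2.91 to 35.1 ± 1.26 CPM (log2 fold change -0.52, SE 0.07, edgeR adjusted p = 8.09e-05).

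Frmd8 encodes a partner of the iRhom proteins that stabilises the complex of iRhom and ADAM17 at the cell surface. It had 1, 1 and 2 reads in control and 491, 398 and 449 in JAG1, at least 164-fold higher with control set to 3 reads per library. Frmd8 lies on chromosome 19, the chromosome with a median log2 fold change of 0.60 over 398 tested genes. The iRhom genes Rhbdf1 and Rhbdf2 had log2 fold changes of 0.12 and -0.22 (edgeR adjusted p = 0.4 and 0.496). The other tested genes that did not pass were Adam12 (-0.68), Adam15 (0.18), the ADAM17 inhibitor Timp3 (0.09) and Cd9 (0.39), a tetraspanin that associates with the Hbegf precursor. Adam19 had 1 read in all libraries together and Nkd2, which carries the Tgfa precursor to the membrane, had none.

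Of 14 genes for receptor turnover and inhibition, 12 were tested, 6 rose (50% of those tested, beside 27.4% of all genes) and 6 did not pass, with a median log2 fold change of 0.26. By edgeR 0 fell, also 0 at an unadjusted p under 0.05, and DESeq2 likewise called 0 lower, beside 27.7% of all genes by edgeR. Ptprj, a phosphatase that acts on EGFR, rose from 2.99 ± 0.113 to 7.68 ± 0.682 CPM (log2 fold change 1.36, SE 0.14, edgeR adjusted p = 1.1e-05). Lrig3 rose by 0.72 on the log2 scale (SE 0.18, edgeR adjusted p = 0.00483). Its relative Lrig1, whose membrane protein lowers ErbB receptor levels, did not pass, and neither did Lrig2. Their log2 fold changes were -0.08 and -0.03 (edgeR adjusted p = 0.602 and 0.828). Errfi1, an inhibitor of the EGFR kinase that is itself induced by EGFR signalling, rose by 0.71 (SE 0.13, edgeR adjusted p = 0.000626).

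Of 21 adaptors and kinases of the RAS-MAPK path, 19 were tested, 7 rose (36.8%, beside 27.4% of all genes), 2 fell (10.5%, beside 27.7%) and 10 did not pass, with a median log2 fold change of 0.17. The docking protein gene Gab1 rose from 2.11 ± 0.375 to 5.34 ± 1.64 CPM (log2 fold change 1.32, SE 0.25, edgeR adjusted p = 0.0011). The RAS exchange factor Sos2 and the kinase Map2k1 rose by 0.61 and 0.54 on the log2 scale (edgeR adjusted p = 0.000345 and 0.000195). The 2 that fell were Mapk3, which encodes ERK1, with a log2 fold change of -0.54 (edgeR adjusted p = 1.47e-05), and Nras, with -0.16 (edgeR adjusted p = 0.017). The Nras call was lost without control replicate 2 (edgeR adjusted p = 0.0919) and without JAG1 replicate 3 (0.0749).

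In the PI3K-AKT, PLC-gamma and STAT branch, 15 of 16 genes were tested, 5 rose (33.3%, beside 27.4% of all genes), 6 fell (40% of those tested, beside 27.7%) and 4 did not pass, with a median log2 fold change of 0.07. The genes for regulatory subunits of PI3K fell together: Pik3r1 from 230 to 113 CPM, Pik3r2 from 38.4 to 12.9 CPM and Pik3r3 from 12.7 to 5.63 CPM. Their log2 fold changes were -1.02, -1.58 and -1.15 (SE 0.05, 0.09 and 0.16, edgeR adjusted p = 2.74e-08, 1.06e-07 and 9.75e-05). Stat3, a transcription factor gene, and Akt1, a kinase gene, both act downstream of the receptors and rose by 0.88 and 0.70 on the log2 scale (edgeR adjusted p = 2.92e-06 and 1.81e-06).

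Genes that ERK signalling induces, including those that feed back on it, had the highest share of calls in 1 direction among the 5 longer lists. Of 29 genes 26 were tested, 18 rose (69.2%, beside 27.4% of all genes), 4 fell (15.4%, beside 27.7%) and 4 did not pass, with a median log2 fold change of 0.71. The immediate early gene Egr1 rose from 25.9 ± 3.004 to 93.99 ± 8.605 CPM (log2 fold change 1.86, SE 0.10, edgeR adjusted p = 3.52e-08). Ier3, another early response gene, rose from 105 to 351 CPM (1.75, SE 0.06, edgeR adjusted p = 1.27e-09). Spry4, a feedback inhibitor of receptor kinase signalling, had 2, 14 and 11 reads in control and 25, 24 and 31 in JAG1. It rose from 0.475 to 1.59 CPM (1.74, SE 0.46, edgeR adjusted p = 0.00783).

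Some further genes of this list were named after their values were seen. Etv4 and Etv5, transcription factor genes induced by ERK, rose from 34.6 ± 3.59 to 112 ± 2.69 CPM and from 12.7 ± 1.06 to 36.4 ± 2.36 CPM (log2 fold change 1.69 and 1.51, edgeR adjusted p = 1.43e-08 and 1.18e-07). Dusp6, an ERK phosphatase, and Spry2 rose by 1.22 and 1.27 on the log2 scale (edgeR adjusted p = 2.49e-07 and 1.92e-06). Genes of the same families differed in direction. Among AP-1 subunit genes Fosl1, on chromosome 19, rose from 46.2 to 96.8 CPM and Jun from 122 to 142 CPM (log2 fold change 1.07 and 0.21, edgeR adjusted p = 1.97e-07 and 0.0206), while Junb fell from 209.9 to 141 CPM (-0.57, edgeR adjusted p = 0.00247). The Jun call was lost without control replicate 2, JAG1 replicate 1 or JAG1 replicate 3 (edgeR adjusted p = 0.0546, 0.0815 and 0.0869). Spry1 fell from 2.14 to 0.678 CPM, Egr3 from 2.62 to 1.03 CPM and Fosl2, an AP-1 subunit gene, from 126 to 68.6 CPM (log2 fold change -1.66, -1.33 and -0.88, edgeR adjusted p = 0.00145, 0.00154 and 4.58e-07).

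**Figure D5:**
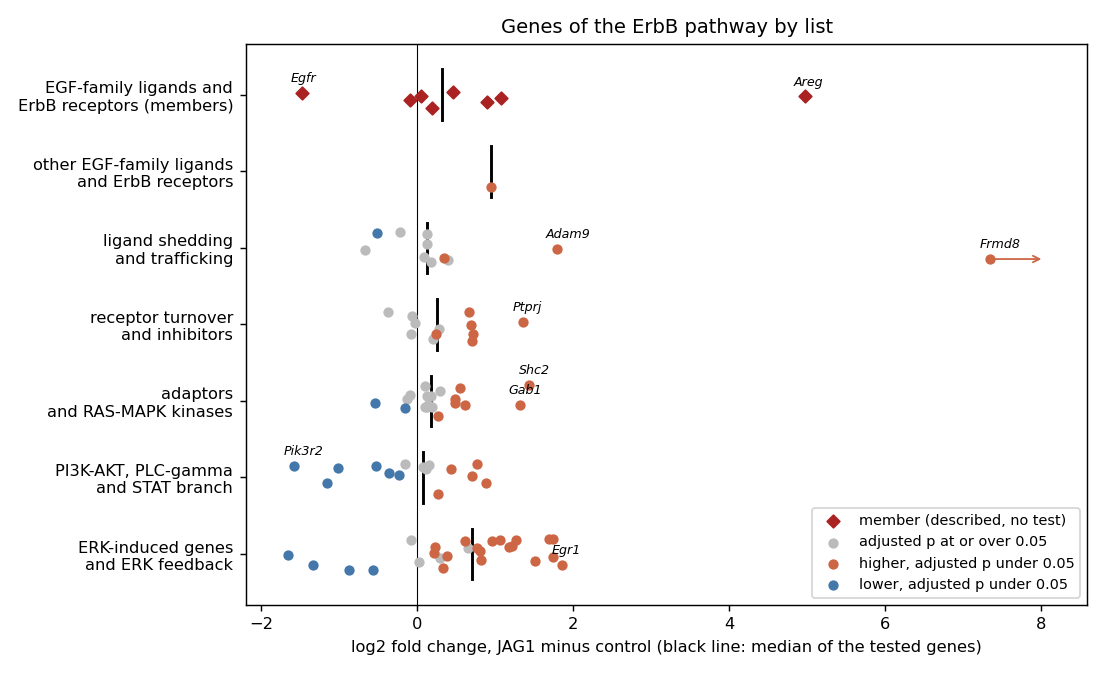
Log2 fold change (JAG1 minus control) of each tested gene by list, with colour for the edgeR call, diamonds for the members, which carry no test, and a black line at the median of the tested genes. The median is 0.71 for the ERK-induced genes, 0.32 for the members and between 0.07 and 0.26 for the other lists with more than 1 tested gene, and the arrow marks Frmd8, for which only a lower bound is given.

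Over the 6 lists together, 84 of 99 genes were tested, 40 rose (47.6%) and 13 fell (15.5%), beside 27.4% and 27.7% of all tested genes, and the median log2 fold change was 0.25. The lists were drawn up when results of these data were already known, so this excess of rises is a description of them. Of the tested genes on these lists, 3 lie on chromosome 19 (Frmd8 among them) and 1 on chromosome 15, both with shifted medians. Medians were taken only for these chromosomes and those of the members. Whether the remaining chromosomes, which hold other genes of the lists, are shifted was not examined.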

How the data were processed

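RNA was measured by 3′ end sequencing in 3 control and 3 JAG1 libraries. Per the labels and the submitters' processing notes, the authors used Bowtie2, bedtools and edgeR with GRCm38 and mm10. Versions, annotation and strand setting are not given in the sources used here. The deposited tables give whole-number read counts per gene. They also give log2 normalized values made by the authors, used only as an alternative.

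Counts were tested with edgeR 4.0.16 in R 4.3.3 (limma 3.58.1): TMM, filterByExpr with a minimum count of 10, the quasi-likelihood test and Benjamini-Hochberg adjustment over 11712 genes. Calls had an adjusted p under 0.05. Each SE, unless another method is named, is the size of the log2 fold change divided by the square root of the F statistic of this test. CPM are TMM-scaled. DESeq2 1.42.0 was an alternative. The test was also run on simulated data in which few genes changed and all had the same fixed spread. These data differ on both points, so that run does not vouch for the calls here.

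The members and lists were chosen with earlier results of these data known. Named were all members, Jag1, all other family and shedding genes and, from the other lists, up to 3 called genes per direction by size of log2 fold change at a mean of at least 1 CPM, with exceptions stated. A gene that this rule names is not reported here.

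Between libraries of a group, counts differed by more than sampling noise, and unevenly. The chi-square of the counts per degree of freedom was 16.2 between control replicates 1 and 3. It was 3.80 to 7.30 between the other pairs of the same group. Positions came from RefSeq in GRCm38.p6, where 22059 of 23282 symbols matched, and 83 rows share a symbol with another.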

Additional observations from a re-analysis of the deposited data

How the results depend on the processing

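The number of genes called was 2930 to 3388 higher and 2997 to 3498 lower under other scalings, filters and tests, and 2724 to 3256 higher and 2792 to 3344 lower when each library was left out. With a limit of at least 2-fold added, 639 genes were higher and 994 lower, and on the pathway lists 14 rose and 5 fell in place of 40 and 13, since that limit drops smaller changes by construction. Leaving out each library gave 37 to 44 rises and 12 to 14 falls on these lists. The log2 fold change of Areg ran from 4.60 to 5.53 as each library was left out, with 9 reads in the control libraries together, and Egfr, Ereg and Hbegf ran from -1.59 to -1.39, 0.87 to 0.95 and 1.04 to 1.10. Tgfa ran from 0.10 to 0.81, and Erbb2 from 0.12 to 0.30, with its highest value without control replicate 1. The sign of Btc turned without control replicate 1 (-0.02) or JAG1 replicate 1 (-0.07). That of Nrg1 turned without control replicate 3 (0.14) or JAG1 replicate 2 (0.01). Calls gained under some settings were those of Adam12 without JAG1 replicate 1 (log2 fold change -1.90, edgeR adjusted p = 0.0207), Adam17 without control replicate 1 (0.0491), Adam15 (lowest 0.00329, without control replicate 1), Cd9 (lowest 0.0116, with the replicate block) and Mthfd2l (lowest 0.0307, without control replicate 3). Libraries of the 2 groups share replicate numbers. Deviations from the group means of same-numbered libraries correlated over genes at 0.15, 0.06 and 0.12, and those of other pairs at -0.14 to 0.01. Every library thus correlated best with its own number. What the numbers stand for is not stated, so the main fit left them out, and whether they mark a shared batch was not tested. A replicate block in edgeR gave 3380 genes higher and 3331 lower, and 5 rises in place of 3 on the shedding list. Depth limits Areg and Spry4 in control, Tgfa, Egf, Epgn and Nrg4, for which a few reads decide the value.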

Other observations

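The genes whose log2 CPM followed that of Areg most closely over the 6 libraries were Pard3b, Dazl, Dnajc4, Flot1 and Itgav, with Pearson's r of 0.9996, 0.999, 0.9988, 0.9988 and 0.9988. Pard3b, which encodes a cell polarity protein, was at 0.671 CPM in control and 4.99 CPM in JAG1. Dazl, a germ cell RNA-binding protein gene, was at 0.103 and 1.29 CPM, its control mean below the lower limit of 3 reads. For Egfr the closest were Sptan1, Dcakd, Zfp937, Manbal and Cpt1b, with r of 0.9994, 0.999, 0.999, 0.9986 and 0.9982. Zfp937 was at 22.3 CPM in control and 8.96 CPM in JAG1, and Cpt1b, a gene of fatty acid import into mitochondria, at 2.74 and 0.890 CPM. The 6 libraries fall into 2 groups, so any gene with a clear difference between them scores high, and 156 genes for Areg and 137 for Egfr had r above 0.99. These values describe likeness across 6 libraries that share the contrast, carry no p-value and say nothing of shared control.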
